A study of Homo sapiens with 6 samples.

Results

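Transcript levels of 45 genes of mitosis were followed in human embryonic stem cells in which the retrotransposon LINE1 was targeted with an antisense oligonucleotide. The 45 genes were taken by symbol from a list covering the spindle, the kinetochore and the spindle checkpoint, out of 53715 genes in the deposited count table. The list was chosen with earlier results of these data known. All 45 were found there, and all 45 were among the 19156 genes with enough counts to be tested. The cells were H9, an established line of primed human embryonic stem cells. They received 1 of 3 oligonucleotides labelled with the green dye FAM at 25 nM: ASO-Ctr, a control antisense oligo with no specific target, sO-L1, an oligo in the sense orientation of LINE1, or ASO-L1, the antisense oligo against LINE1. Every group also received the same lipid reagent, 0.7 uM trans-ISRIB, 5 uM emricasan and 10 uM ROCK inhibitor Y-27632, which were removed after 24 h. FAM-positive cells were sorted 48 h after transfection, and the libraries were made from these cells. Each group had 2 libraries, numbered 1 and 2, and the labels do not say that these came from separate cultures. The spread behind the p-values may therefore be technical. Unless stated otherwise, the p-values are from a fit with the replicate number as a block. They rest mostly on a spread shared over genes. The labels disagree on the medium used after transfection, with mTeSR in one place and RSeT in another.

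Mitosis begins when cyclin B and CDK1 become active, helped by CDC25 phosphatases and the kinases PLK1 and AURKA. Kinesin motors and microtubule-bundling proteins build the spindle, kinetochores attach each chromosome to it, and the spindle checkpoint holds the anaphase-promoting complex back until attachment is complete. That complex, with its activator CDC20, then has securin and cyclin B destroyed, separase cuts cohesin, and the cell divides. Most of these genes are transcribed late in the cell cycle, and primed embryonic stem cells divide fast, with short gap phases. In a bulk library fewer cells in mitosis and less RNA per cell cannot be told apart.

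Library totals ran from 18897936 counts in ASO-Ctr 1 to 67192937 in ASO-Ctr 2. The sO-L1 libraries 1 and 2 held 34665403 and 60999413 counts, and the ASO-L1 libraries 46223290 and 57899009. Replicate 1 was thus the shallower library in every group. The 45 genes held 0.614% to 0.655% of the counts of a library. ASO-Ctr 1 and 2 gave 0.647% and 0.638%, the sO-L1 libraries 0.647% and 0.655%, and the ASO-L1 libraries 0.614% and 0.640%. The cells carried the markers of their label, with 12 genes of primed pluripotency at a summed 10963 to 11622 CPM (counts scaled for library size) in each library. Summed markers of endoderm (2.24 to 5.22 CPM), mesoderm (0.955 to 1.38 CPM), trophoblast (10.9 to 12.0 CPM) and the naive state (5.66 to 7.26 CPM) were low, and so were those of neuroectoderm (50.7 to 56.1 CPM, nearly all MAP2). Fibroblast markers summed to 133 to 170 CPM from COL1A1 and COL1A2, while DCN and LUM, defining genes of that type, stayed under 0.1 CPM.

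Late cell cycle genes are known to share 2 promoter elements, the cell cycle genes homology region (CHR), bound by the DREAM and MuvB complexes, and the CCAAT box, bound by NF-Y. RefSeq promoters of build GRCh38.p14, 250 bases before to 50 after each annotated start, were found for 39 of the 45 genes, with 49 starts in all. AURKA, BIRC5, BUB3, TPX2, TTK and UBE2C had no entry in the table used. The letters TTTGAA, the common form of the CHR, were searched on both strands and lay in 33 of the 49 promoters (67.3%), against 10.7% of the 16638 promoters of tested genes and 15.2% of all 35116. Counted by gene, TTTGAA was in 30 of the 39 (76.9%), against 14.0% of the 11349 tested genes with a promoter. The rarer form TTCGAA was in 3 promoters (6.1%, against 1.6% for tested genes). CCAAT on either strand was in 38 (77.6%, against 33.9%), and both elements stood together in 30 (61.2%, against 4.8%). Matches of one element on opposite strands, or of both elements, may overlap by some bases. For some of the genes called below, not chosen by smallest p, the lines that follow hold the 150 bases just upstream of the start. CHR and CCAAT letters of either strand are in capitals (TTCAAA and ATTGG are the reverse complements).
HMMR: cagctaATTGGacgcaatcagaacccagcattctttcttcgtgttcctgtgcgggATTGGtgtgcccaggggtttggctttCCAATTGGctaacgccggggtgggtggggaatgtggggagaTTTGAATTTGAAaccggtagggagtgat
CCNB2: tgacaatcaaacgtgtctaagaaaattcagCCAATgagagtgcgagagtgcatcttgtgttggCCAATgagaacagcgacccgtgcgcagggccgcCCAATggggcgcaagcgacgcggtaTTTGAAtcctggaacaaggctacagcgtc
KIF11: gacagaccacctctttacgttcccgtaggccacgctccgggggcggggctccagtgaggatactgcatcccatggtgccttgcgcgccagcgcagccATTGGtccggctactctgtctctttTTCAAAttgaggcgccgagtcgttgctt
PLK1: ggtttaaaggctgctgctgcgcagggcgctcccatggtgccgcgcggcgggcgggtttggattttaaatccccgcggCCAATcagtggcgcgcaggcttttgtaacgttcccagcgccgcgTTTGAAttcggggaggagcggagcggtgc
ESPL1: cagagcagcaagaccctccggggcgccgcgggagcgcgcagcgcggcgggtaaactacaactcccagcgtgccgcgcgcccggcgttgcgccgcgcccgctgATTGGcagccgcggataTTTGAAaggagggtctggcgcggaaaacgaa
KIF20B: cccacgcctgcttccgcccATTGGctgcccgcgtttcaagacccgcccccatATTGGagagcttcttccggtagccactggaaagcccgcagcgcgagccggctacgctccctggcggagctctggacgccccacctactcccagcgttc

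These stretches lie at chr5:163460482-163460631 for HMMR, chr15:59104996-59105145 for CCNB2, chr10:92592980-92593129 for KIF11, chr16:23678739-23678888 for PLK1, chr12:53268149-53268298 for ESPL1 and chr10:89701440-89701589 for KIF20B, all on the plus strand of GRCh38.p14. HMMR carries a CHR in tandem close to its start. CCNB2, PLK1 and ESPL1 carry 1 CHR each on the printed strand, and KIF11 carries 1 on the other strand. KIF20B has CCAAT letters in the printed stretch, and its TTTGAA letters lie after the start, in tandem at 24 and 30 bases, inside the promoter searched but outside the stretch shown. Of the 49 CHR matches in all member promoters, 35 lay between 60 bases before and 40 bases after the start. In genes with more than 1 start, such as ECT2 and CDC25C, the same site can be counted at each start. Of the 12 genes that fell in ASO-L1 against sO-L1 and had a promoter here, 8 held TTTGAA, against 22 of the 27 other members. CCAAT went the other way, in 11 of the 12 against 22 of the 27, and neither difference was tested. The genes that fell without TTTGAA were CCNB1, PTTG1, SPC24 and CENPE, none of which is printed here. A match of letters is a description and shows no binding.

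**Figure D1:**
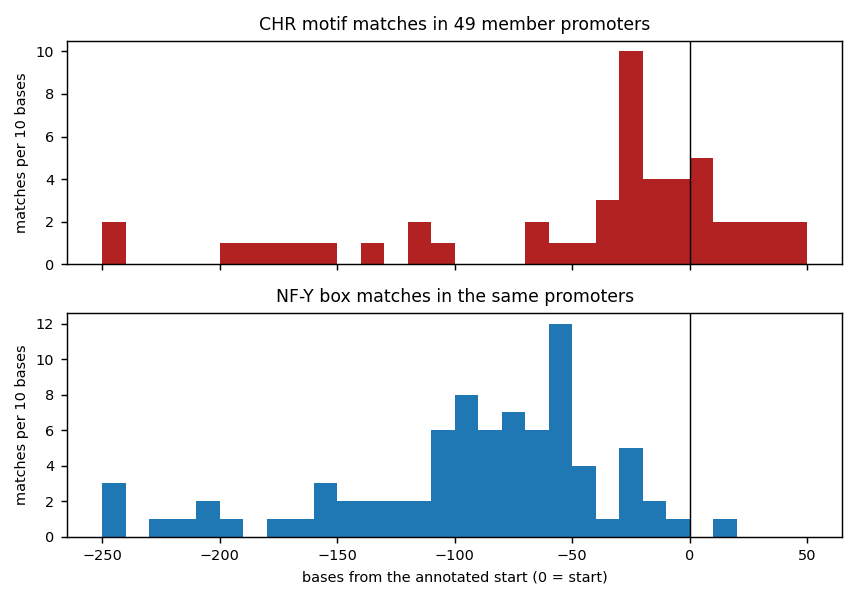
Matches to the CHR (upper panel, both forms) and to the CCAAT box bound by NF-Y (lower panel) in 49 RefSeq promoters of the mitotic genes, counted per 10 bases, against the distance in bases from the annotated start. Of the 49 CHR matches, 35 lie between 60 bases before and 40 bases after the start, and most CCAAT matches lie further upstream. A site within reach of several starts of a gene is counted at each.

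Levels within the set spanned a wide range. Per kilobase of the longest coding transcript, averaged over all 6 libraries, the mitotic cyclin CCNB1 was at 127 CPM per kb, the ubiquitin-conjugating enzyme UBE2C at 120.1, the DNA topoisomerase TOP2A at 119 and the anaphase activator CDC20 at 101. The spread between libraries of a group was 4.23 to 16.0 CPM per kb for the first 3 of these, so their order among themselves lies within that spread. The kinesin KIF14 (9.23 CPM per kb), the phosphatase CDC25B (10.6) and the centromeric histone CENPA (11.4) were lowest. Every member held at least 300 counts in every library.

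The first question was whether the mitotic genes differed between cells given the antisense and the sense LINE1 oligo, the comparison for which the study deposited its own table. With edgeR's quasi-likelihood test, the replicate number as a block and Benjamini-Hochberg adjustment over all 19156 genes, 14 mitotic genes fell in ASO-L1 against sO-L1, 2 rose and 29 did not pass an adjusted p of 0.05. Lower calls were thus 31.1% of the members, where 12.7% of all tested genes were called lower, and higher calls 4.44%, where 10.4% of all genes were called higher. Because the members were chosen with earlier results of these data known, these shares are a description and no test of the set. The changes were small. Members ranged from 0.807-fold (HMMR) to 1.14-fold (ESPL1), and the median absolute log2 fold change of the members was 0.0933 against 0.159 over all tested genes. The 139 further mitotic genes described below gave 0.0828, and the value over all genes was not matched for count level. The median signed log2 fold change of the members was -0.04, against -0.000514 over all genes. Without the replicate block edgeR called 0 of the 45 genes, where 1.84% of all genes were called, and the smallest adjusted p was 0.0882, for HMMR. At an unadjusted p under 0.05 that fit had 6 members, or 13.3%, against 16.5% of all genes.

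**Figure D2:**
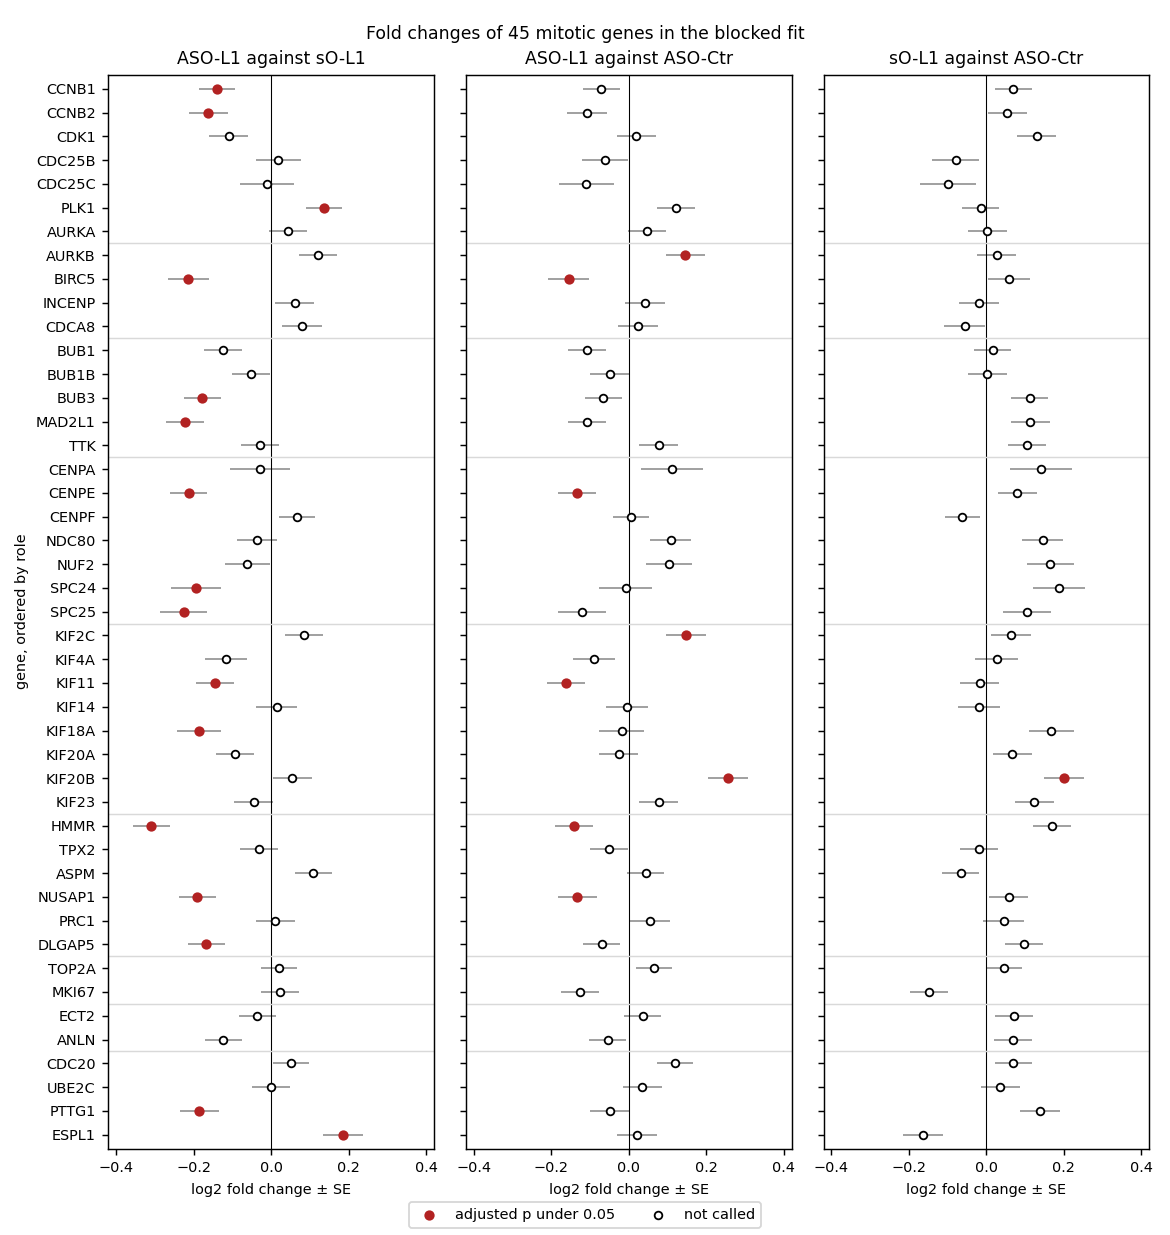
Log2 fold change ± SE of each of the 45 genes from edgeR with the replicate block, in the 3 comparisons, ordered by role and divided by grey lines. Filled red points passed an adjusted p of 0.05, and in ASO-L1 against sO-L1 these are 14 genes left of 0 and 2 right of it.

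Spindle assembly and bundling held the gene with the lowest ratio. HMMR, a microtubule-binding protein of the spindle poles, had 128 and 115 CPM with ASO-Ctr (replicates 1 and 2, in this order throughout), 140.1 and 132 with sO-L1 and 113 and 107 with ASO-L1. Both ASO-L1 libraries lay below all 4 others, and both sO-L1 libraries above all 4 others. The log2 fold change of ASO-L1 against sO-L1 was -0.31 ± 0.05 (SE), with an adjusted p of 2.11e-06, and it was -0.31 in replicate 1 and -0.31 in replicate 2. Every later change is likewise a log2 fold change with its SE. HMMR passed with every library left out in turn, with a largest adjusted p of 0.0032. NUSAP1, which bundles microtubules near chromosomes, had 138 and 125 CPM with ASO-Ctr, 139.8 and 133 with sO-L1 and 118 and 120.4 with ASO-L1, and changed by -0.19 ± 0.05 (adjusted p = 0.00293, or 0.238 without the block). DLGAP5, a stabiliser of kinetochore fibres, had 221 and 204 CPM with ASO-Ctr, 233 and 221 with sO-L1 and 199 and 205 with ASO-L1, and changed by -0.17 ± 0.05 (adjusted p = 0.00729, or 0.287). For both genes the ASO-L1 libraries lay below both sO-L1 libraries. The other 3 genes of this role, TPX2, ASPM and PRC1, had log2 fold changes of -0.03, 0.11 and 0.01 and did not pass.

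The spindle checkpoint and the kinetochore followed. BUB3, which carries BUB1 and BUBR1 to the kinetochore, had 307 and 280.3 CPM with ASO-Ctr, 338 and 297 with sO-L1 and 283 and 277 with ASO-L1, a change of -0.18 ± 0.05 (adjusted p = 0.0041, or 0.321 without the block). MAD2L1, the checkpoint protein that binds CDC20, had 131 and 121 CPM with ASO-Ctr, 150.3 and 124 with sO-L1 and 123 and 112 with ASO-L1, a change of -0.22 ± 0.05 (adjusted p = 0.000574, or 0.302). In both genes sO-L1 1 was the highest of the 6 libraries, and the 2 groups compared did not overlap. The kinases BUB1 and TTK and the pseudokinase BUB1B, also of the checkpoint, had log2 fold changes of -0.12, -0.03 and -0.05 and did not pass (adjusted p = 0.0552 for BUB1).

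Within the kinetochore, 2 of the 4 members of one complex fell. The NDC80 complex, which grips microtubule ends, is made of NDC80, NUF2, SPC24 and SPC25. SPC24 had 25.8 and 25.1 CPM with ASO-Ctr, 30.5 and 27.8 with sO-L1 and 25.6 and 25.2 with ASO-L1, a change of -0.20 ± 0.06 (adjusted p = 0.0224, or 0.29 without the block). SPC25 had 38.2 and 31.4 CPM with ASO-Ctr, 40.6 and 33.9 with sO-L1 and 33.1 and 30.3 with ASO-L1, a change of -0.23 ± 0.06 (adjusted p = 0.00423, or 0.385). NDC80 and NUF2 had log2 fold changes of -0.04 ± 0.05 and -0.06 ± 0.06 and did not pass, and the difference between the pairs was not tested. For SPC24 both sO-L1 libraries lay above all 4 others, and the ASO-L1 levels were within 1 CPM of those in ASO-Ctr. CENPE, the kinesin that moves chromosomes to the spindle equator, had 124 and 158 CPM with ASO-Ctr, 137 and 161 with sO-L1 and 113 and 145 with ASO-L1. Its replicates differed more than its groups, which overlapped, and the blocked change was -0.21 ± 0.05 (adjusted p = 0.000783, or 0.52). CENPA and CENPF, with -0.03 and 0.07, did not pass.

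Of 8 spindle motors, 2 fell in ASO-L1 against sO-L1. KIF11, the kinesin that pushes the spindle poles apart, had 183 and 177 CPM with ASO-Ctr, 174 and 179.9 with sO-L1 and 151 and 170.0 with ASO-L1, so both ASO-L1 libraries were below all others. Its log2 fold change was -0.14 ± 0.05 (adjusted p = 0.0277, or 0.402 without the block). KIF18A, which damps chromosome movements at the metaphase plate, had 42.9 and 39.1 CPM with ASO-Ctr, 46.7 and 44.9 with sO-L1 and 40.8 and 39.7 with ASO-L1. Here the sO-L1 libraries stood above the other 4, and the change was -0.19 ± 0.06 (adjusted p = 0.0115, or 0.289). KIF2C, KIF4A, KIF14, KIF20A, KIF20B and KIF23 had log2 fold changes of -0.12 to 0.08 and did not pass.

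Among the genes of mitotic entry both B-type cyclins fell and 1 kinase rose. CCNB1, the main partner of CDK1, had 296 and 254 CPM with ASO-Ctr, 313 and 264 with sO-L1 and 270.3 and 251 with ASO-L1, a change of -0.14 ± 0.05 (adjusted p = 0.0245, or 0.537 without the block). CCNB2 had 116 and 98.4 CPM with ASO-Ctr, 120.1 and 102 with sO-L1 and 101 and 96.3 with ASO-L1, a change of -0.16 ± 0.05 (adjusted p = 0.014, or 0.464). In each group the replicate 1 library was the higher one for both cyclins, and the CCNB1 groups overlapped. PLK1, the kinase that drives centrosome maturation and spindle assembly, went the other way. It had 139.8 and 132 CPM with ASO-Ctr, 136 and 133 with sO-L1 and 153 and 143 with ASO-L1, with both ASO-L1 libraries above all 4 others, and rose by 0.14 ± 0.05 (adjusted p = 0.031, or 0.381). CDK1 itself was at -0.11 ± 0.05 (adjusted p = 0.109), and AURKA, CDC25B and CDC25C at 0.04, 0.02 and -0.01, none of which passed.

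In the chromosomal passenger complex, which corrects faulty attachments, 1 of 4 subunits fell. BIRC5 (survivin) had 67.2 and 56.3 CPM with ASO-Ctr, 68.6 and 59.5 with sO-L1 and 57.4 and 52.7 with ASO-L1, a change of -0.21 ± 0.05 (adjusted p = 0.00184, or 0.352 without the block). Its kinase AURKB had 102 and 91.4 CPM with ASO-Ctr, 102 and 94.8 with sO-L1 and 114 and 101 with ASO-L1, a log2 fold change of 0.12 ± 0.05 that did not pass (adjusted p = 0.0678). INCENP and CDCA8 (borealin) were at 0.06 and 0.08 and did not pass either.

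Of 4 genes of anaphase and mitotic exit, 1 fell and 1 rose. PTTG1 (securin), which holds separase inactive, had 87.7 and 65.7 CPM with ASO-Ctr, 94.7 and 73.3 with sO-L1 and 81.3 and 66.0 with ASO-L1, a change of -0.19 ± 0.05 (adjusted p = 0.00487, or 0.621 without the block). ESPL1 (separase), which cuts cohesin, had 76.6 and 85.9 CPM with ASO-Ctr, 67.8 and 77.4 with sO-L1 and 80.8 and 84.3 with ASO-L1, a change of 0.19 ± 0.05 (adjusted p = 0.00538, or 0.35). PTTG1 was higher in replicate 1 of every group and its groups overlapped, while both ESPL1 libraries of ASO-L1 lay above both of sO-L1 and ASO-Ctr lay near ASO-L1. CDC20, at 0.05, and UBE2C did not pass.

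None of ANLN, ECT2, TOP2A and MKI67 passed in ASO-L1 against sO-L1. ANLN, an actin-binding protein of the cleavage furrow, had 159 and 152 CPM with ASO-Ctr, 162 and 163 with sO-L1 and 148 and 151 with ASO-L1. The ASO-L1 libraries were below all others, at -0.12 ± 0.05, just outside the threshold (adjusted p = 0.0529). ECT2, which activates RhoA at the furrow, was at -0.04. TOP2A and MKI67, the topoisomerase and the surface protein of mitotic chromosomes, were both at 0.02. Over the 3 comparisons 19 of the 45 genes were called at least once, and the log2 fold changes of the other 26 ran from -0.15 to 0.16. The share of all tested genes called at least once was not computed, so the count of 19 is a description. ASO-L1 lay below sO-L1 in both replicates in 22 members and above it in both in 10, or 48.9% and 22.2%, where all tested genes gave 36.1% and 36.0%. The 2 groups did not overlap in 15 members that were lower and 2 that were higher, 33.3% and 4.44%, against 23.4% and 23.6% of all tested genes.

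**Figure D3:**
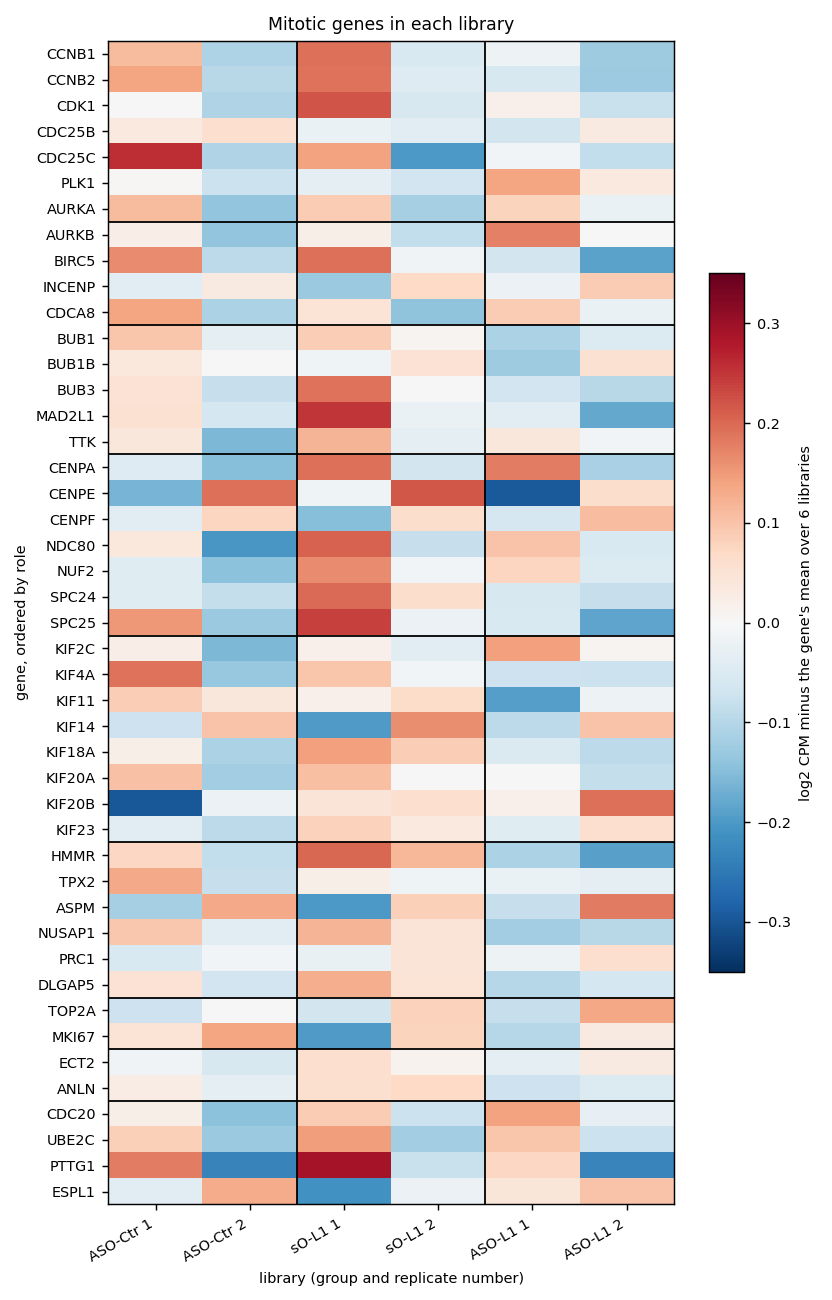
Level of each of the 45 genes in each of the 6 libraries, as log2 CPM minus the gene's own mean over the libraries (colour scale from -0.35 to 0.35), with lines between groups and between roles. HMMR is red in both sO-L1 libraries and blue in both ASO-L1 libraries, while PTTG1, CCNB1 and SPC25 are redder in replicate 1 than in replicate 2 of every group and CENPE, ASPM and KIF14 the reverse.

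The replicate 1 libraries, which held fewer counts than replicate 2 in every group, carried most of the difference. Whether this goes with depth was not tested. The median log2 ratio of the members, ASO-L1 over sO-L1, was -0.104 in replicate 1 and -0.0216 in replicate 2, where all genes gave 0.0009 and -0.00124. All 16 called genes had the same sign in both replicates, which selection by a call favours, so it is no separate support. In 16 of the 16 the ratio was further from 0 in replicate 1, although for HMMR the ratios were the same to 2 decimals. The share over all called genes was not computed, so this is not shown to be particular to the members. When sO-L1 1 or ASO-L1 1 was left out, which leaves 1 library in a group, most lower calls of the members were lost. The further mitotic genes described below also lost most of their lower calls, and the share over all tested genes was not computed. Both higher calls of the members were lost without sO-L1 1 and without ASO-L1 1.

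**Figure D4:**
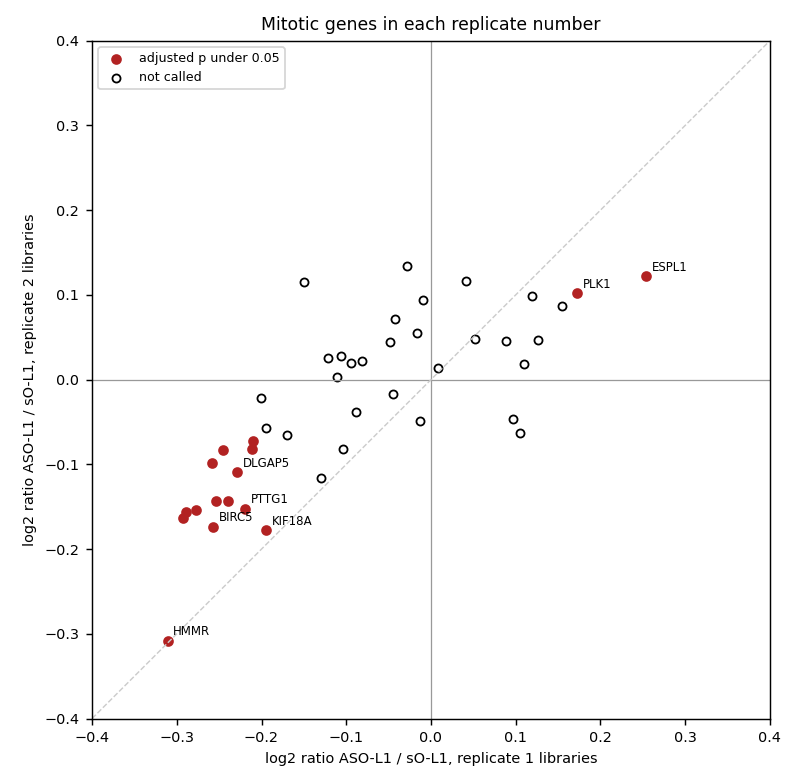
Log2 ratio of ASO-L1 to sO-L1 among the replicate 1 libraries (horizontal axis) against the replicate 2 libraries (vertical axis), 1 point per mitotic gene, with the dashed line of equal ratios. HMMR sits on the line near -0.31 in both, and the other 15 called genes (filled) lie nearer 0 in replicate 2 than in replicate 1.

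The authors' deposited table for the same comparison, made from the same libraries and so not independent, lists 14 members lower and 3 higher at its adjusted p under 0.05, where it calls 11.9% of its 16753 genes lower and 11.2% higher. All 14 lower calls are those found here, and its higher genes are PLK1, ESPL1 and AURKB.

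The second question was how the LINE1 antisense oligo compared with the control antisense oligo. These comparisons share libraries, so their values are set side by side and not counted as separate support. In ASO-L1 against ASO-Ctr 5 members fell, 3 rose and 37 did not pass, 11.1% and 6.67% where 11.6% and 9.88% of all tested genes were called. The members as a set were centred near 0, with a median log2 fold change of -0.01 and a range from -0.16 to 0.26. The groups did not overlap in 2 higher and 7 lower members (4.44% and 15.6%, against 23.8% and 24.7% of all tested genes), and both replicates had the same sign in 13 and 15 (28.9% and 33.3%, against 35.5% and 35.5%). Without the block edgeR called 0 members, where 1.95% of all genes were called, and 1 member (2.22%, against 16.7%) had an unadjusted p under 0.05, with a smallest adjusted p of 0.236. The 5 that fell were KIF11 (-0.16 ± 0.05, adjusted p = 0.0144), BIRC5 (-0.16 ± 0.05, 0.0315), HMMR (-0.14 ± 0.05, 0.0325), CENPE (-0.13 ± 0.05, 0.0454) and NUSAP1 (-0.13 ± 0.05, 0.0483), with 0.332 to 0.695 without the block. Lower calls numbered 0 when either ASO-Ctr 1 or ASO-L1 1 was left out, 3 without sO-L1 2, and 0 with the DESeq2 test. Higher calls numbered 1 when any ASO-Ctr or ASO-L1 library was left out. CENPE lost its call with each of the 6 libraries left out in turn.

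KIF20B, a kinesin of late mitosis and the midbody, rose most. It had 127 and 154 CPM with ASO-Ctr, 161 and 162 with sO-L1 and 158 and 178 with ASO-L1, so ASO-Ctr held the lowest 2 libraries. Its log2 fold change was 0.26 ± 0.05 in ASO-L1 against ASO-Ctr (adjusted p = 0.000165, or 0.236 without the block), 0.20 ± 0.05 in sO-L1 against ASO-Ctr (0.0287) and 0.05 ± 0.05 in ASO-L1 against sO-L1 (0.493). Without ASO-Ctr 1 the first of these had an adjusted p of 0.0598. KIF2C, which depolymerises microtubules at centromeres, had 87.5 and 77.1 CPM with ASO-Ctr, 87.2 and 83.8 with sO-L1 and 95.1 and 86.5 with ASO-L1, and rose by 0.15 ± 0.05 (adjusted p = 0.03, or 0.442). AURKB rose by 0.15 ± 0.05 (adjusted p = 0.0268, or 0.455). In both of these genes ASO-L1 overlapped ASO-Ctr, and the replicate 1 library was the higher one in every group.

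The third comparison set the sense oligo against the control oligo. In sO-L1 against ASO-Ctr edgeR called 1 member higher, KIF20B, and 0 lower, 2.22% and 0% where 0.673% and 1.06% of all tested genes were called. At an unadjusted p under 0.05 there were 13 higher and 2 lower members (28.9% and 4.44%, against 6.33% and 6.46% of all genes), DESeq2 and limma-voom called 0 in either direction, and the fit without the block called 0 members, with 0 at an unadjusted p under 0.05, where it called 0 of all genes and had 2.97% of them at that unadjusted p. The members lay more often above 0 than below, with a median log2 fold change of 0.06 against -0.000228 over all genes. sO-L1 exceeded ASO-Ctr in both replicates in 27 members (60.0%) and was lower in both in 7 (15.6%), where all tested genes gave 30.5% and 29.6%. The groups did not overlap in 8 members that were higher and 1 that was lower, or 17.8% and 2.22% against 14.5% and 15.2% of all genes, and the higher ones included HMMR (0.17 ± 0.05, adjusted p = 0.0593), SPC24 (0.19 ± 0.07, 0.172), KIF18A (0.17 ± 0.06, 0.149) and NUF2 (0.16 ± 0.06, 0.18). MKI67, the proliferation marker, stood on the other side of 0, with 306 and 326 CPM with ASO-Ctr, 258 and 313 with sO-L1 and 276 and 303 with ASO-L1, at -0.15 ± 0.05 (adjusted p = 0.115). Of the 14 genes that fell in ASO-L1 against sO-L1, KIF11, BIRC5, HMMR, CENPE and NUSAP1 also passed in ASO-L1 against ASO-Ctr. These comparisons share the ASO-L1 libraries, and the same overlap over all called genes was not computed. Among those of the 14 that did not pass in ASO-L1 against ASO-Ctr, SPC24 was at -0.01 ± 0.07, KIF18A at -0.02 ± 0.06, PTTG1 at -0.05 ± 0.05 and BUB3 at -0.07 ± 0.05. MAD2L1, SPC25, DLGAP5, CCNB1 and CCNB2 did not pass either, though their mean CPM was lower in ASO-L1 than in ASO-Ctr.

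The other genes of mitosis were read from a list of 141 symbols, of which 139 were found and tested. In ASO-L1 against sO-L1 8 rose and 18 fell (5.76% and 12.9%, beside 10.4% and 12.7% of all genes), and their median log2 fold change was -0.01. In ASO-L1 against ASO-Ctr 16 rose and 9 fell (11.5% and 6.47%, beside 9.88% and 11.6%), and in sO-L1 against ASO-Ctr edgeR called 1 higher and 0 lower (0.719% and 0%, beside 0.673% and 1.06%), with 24 and 4 at an unadjusted p under 0.05 (17.3% and 2.88%, beside 6.33% and 6.46%). Without the block 1, 2 and 0 of the 139 passed (0.719%, 1.44% and 0%, beside 1.84%, 1.95% and 0% of all genes). Against sO-L1 the 18 lower calls became 5 without sO-L1 1 and 5 without ASO-L1 1, and the 8 higher calls became 3 without sO-L1 1, 3 without sO-L1 2 and 2 without ASO-L1 1. Against ASO-Ctr the 16 higher calls became 6 without ASO-L1 1, 8 without ASO-L1 2, 9 without ASO-Ctr 1 and 10 without ASO-Ctr 2, and the 9 lower calls became 4 without ASO-L1 1 or ASO-Ctr 1. The 1 call of sO-L1 against ASO-Ctr became 0 to 3 with 1 library left out. CDC16, a subunit of the anaphase-promoting complex, had 135 and 119.9 CPM with ASO-Ctr, 134 and 125 with sO-L1 and 93.7 and 97.8 with ASO-L1. It changed by -0.43 ± 0.05 against sO-L1 and by -0.40 ± 0.05 against ASO-Ctr, and both passed with the block (adjusted p = 4.03e-09 and 3.22e-08) and without it (0.0325 and 0.0412). ANAPC1, its scaffold subunit, had 105 and 104 CPM with ASO-Ctr, 94.2 and 99.5 with sO-L1 and 73.0 and 83.7 with ASO-L1, with -0.31 ± 0.05 and -0.40 ± 0.05 (adjusted p = 8.42e-06 and 3.54e-08, or 0.104 and 0.0439 without the block). In both genes the ASO-L1 libraries lay well below the other 4.

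TFDP1, the partner of E2F factors in the transcription of cell cycle genes, had 175 and 171 CPM with ASO-Ctr, 185 and 175 with sO-L1 and 141 and 146 with ASO-L1, and changed by -0.32 ± 0.05 against sO-L1 (adjusted p = 9.17e-07, or 0.0531 without the block) and by -0.27 ± 0.05 against ASO-Ctr (2.77e-05, or 0.0858). SMC3, a core subunit of the cohesin ring, had 279.8 and 318 CPM with ASO-Ctr, 336 and 329 with sO-L1 and 377 and 396 with ASO-L1, with 0.22 ± 0.05 against sO-L1 and 0.37 ± 0.05 against ASO-Ctr (adjusted p = 0.000574 and 6.33e-08, or 0.217 and 0.0552). STAG2, another cohesin subunit, and CENPO, of the inner kinetochore, rose against sO-L1 by 0.18 ± 0.05 and 0.22 ± 0.05 (adjusted p = 0.00299 and 0.00139, or 0.29 and 0.161). Against ASO-Ctr, WEE1, the kinase that restrains CDK1, rose by 0.25 ± 0.05 and CKS1B, a small CDK-binding protein, by 0.27 ± 0.06 (adjusted p = 9.27e-05 and 0.000203, or 0.126 and 0.292). In sO-L1 against ASO-Ctr the inner kinetochore gene CENPH rose by 0.19 ± 0.05 (adjusted p = 0.0346), a call that DESeq2 and limma-voom did not make.

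The members differed between replicate numbers in a shared way. In 26 of them replicate 1 was above replicate 2 in all 3 groups, and in 10 below it in all 3, so 80.0% moved one way, where 51.0% of all tested genes did. The log2 differences between replicates 1 and 2 correlated between groups at 0.806 to 0.847 over the 45 members, against 0.191 to 0.278 over all 19156 genes, as a description across genes that share libraries. The 26 had a median longest coding transcript of 2281.5 bases and the 10 one of 6948.5 bases. Across the 45 members the difference between replicates, averaged over groups, had a Pearson correlation of -0.816 and a Spearman correlation of -0.812 with log2 transcript length, where 14078 tested genes gave -0.23 and -0.347. Short transcripts such as PTTG1, SPC25 and CCNB1 were thus higher in replicate 1, and long ones such as CENPE, ASPM and KIF14 in replicate 2. Some further mitotic genes also moved one way, with CKS2 and STMN1 higher in replicate 1 of every group and PCNT and NIPBL in replicate 2. That list was not counted, and the values over all genes were not matched for count level. The pattern is therefore not shown to be particular to the 45 members. Replicate 1 also held fewer counts in every group, and whether the shift goes with depth was not tested. The contrasts between groups had weaker correlations with length over the members, 0.135 for ASO-L1 against sO-L1, -0.153 for ASO-L1 against ASO-Ctr and -0.355 for sO-L1 against ASO-Ctr.

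**Figure D5:**
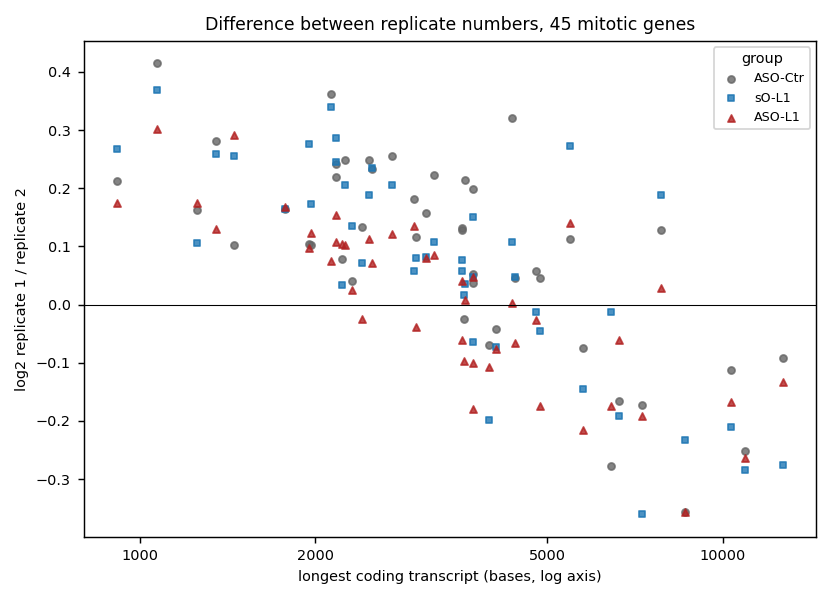
Log2 ratio of replicate 1 to replicate 2 for each mitotic gene in each group (vertical axis) against the length of its longest coding transcript in bases (log axis). In all 3 groups the points fall from above 0 for short transcripts to below 0 for long ones, and the correlation of the mean over groups is -0.816.

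Some values depend on how reads were assigned. In 13 members, HMMR, PLK1, MAD2L1, KIF18A, SPC24 and KIF2C among them, an exon overlaps one of a gene on the other strand, and since it is not stated whether counting used strand, such reads cannot be told apart here. Near-identical copies held few counts, with 1899 over all libraries for CDC20P1, 53 for AURKAPS1 and 28 for KIF4B, and 0 for PTTG2 and PTTG3P, so reads shared between copies remain uncertain for CDC20, AURKA, KIF4A, UBE2C and PTTG1.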

How the data were processed

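Poly(A) RNA of 6 libraries from H9 cells was sequenced with a directional kit, 2 libraries in each of 3 groups taken from the labels. The submitters' processing notes name Trim Galore 0.4.0, TopHat2 2.0.13, featureCounts and Subread 1.5.0, and the build hg19. The authors deposited raw counts for each gene symbol; the name of the table says that duplicates were removed. Its header has no name for the gene column, so library names were read in order and checked against the authors' deposited log2 table, which per its name holds normalised, batch-corrected values. A further deposited table holds the authors' log2 fold changes with their p-values, and scores (t and B statistics, not used here), for 1 comparison, whose adjustment is not given in the sources used here. Its sign, ASO-L1 minus sO-L1, was settled against the log2 table (correlation 0.996).

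The 92 spike-in entries were left out of library sizes and tests. Genes passed filterByExpr at a minimum count of 10 and a minimum total of 15, TMM gave factors of 0.983 to 1.02, and all 6 libraries were fitted together with edgeR 4.0.16 in R 4.3.3, by the robust quasi-likelihood test with group and replicate number in the design, which leaves 2 residual degrees of freedom per gene. Benjamini-Hochberg adjustment ran over all 19156 tested genes, and an adjusted p under 0.05 made a call. Errors of log2 fold changes are SE, from the fold change and the F statistic. With a median of 45.0 prior degrees of freedom beside the 2 residual ones, SE and p-values rest mostly on a spread shared over genes. Levels are CPM with TMM scaling. The script was tested on simulated data. Transcript lengths are from GENCODE, promoters from RefSeq.

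The replicate number is in the design because the study's outputs include a batch-corrected table. The labels do not say that it marks a batch, and 2 numbers cannot establish pairing. Differences between replicates 1 and 2 correlated between groups at 0.258, 0.191 and 0.278 over all genes. In the log2 table the replicate means over the groups agreed to within 0.02 in 82.6% of genes, against 9.23% for log2 CPM. The members, the further mitotic genes and the markers were chosen with earlier results of these data known. Values in all libraries are given for every member called in any comparison and for the member with the smallest p in each role. Of the further mitotic genes, the 3 called with the smallest p in each comparison and direction are named. Alternatives were other scalings and filters, DESeq2 1.42.0, limma-voom 3.58.1, no block, 4 libraries, each library left out, thinned counts and a looser threshold. Of 141 further genes, 2 had no match to a symbol in the table and were not analysed here.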

Additional observations from a re-analysis of the deposited data

How the results depend on the processing

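Signs were followed for each call of a member, the smallest p of each role and the named calls of further mitotic genes. None of these log2 fold changes changed sign under the alternatives run. The other values named, many of them near 0, were not followed. Medians, same-sign and non-overlap shares and correlations were computed in the main setting only. The balance of 3 higher and 5 lower members in ASO-L1 against ASO-Ctr turned to 3 and 1 with no low-count filter, and to 1 and 0 with DESeq2 or without ASO-Ctr 1. Upper-quartile scaling and a filter of CPM above 0.5 in 2 libraries kept all 25 calls of members, DESeq2 size factors and limma-voom 23, the fit of 4 libraries 24, the absence of a filter 21, thinning to the shallowest library (18897936 counts) 15 and the DESeq2 test 12. Without the replicate block none of the 25 was kept: edgeR called 0 higher and 0 lower members in ASO-L1 against sO-L1, 0 and 0 in ASO-L1 against ASO-Ctr, and 0 and 0 in sO-L1 against ASO-Ctr, with 6, 1 and 0 at an unadjusted p under 0.05. Only 2 replicate numbers exist, which cannot show that the block stands for real pairs. For ASO-L1 against sO-L1, 2 higher calls became 1 with DESeq2 and 4 at an adjusted p under 0.1, and 14 lower calls became 8 after thinning. For ASO-L1 against ASO-Ctr, 3 higher calls became 1 with DESeq2 and 5 at 0.1, and 5 lower calls became 3 with DESeq2 size factors, 1 with no filter and 0 with DESeq2. For sO-L1 against ASO-Ctr, 1 higher call became 2 with no filter, with 4 libraries or at 0.1, and 0 with DESeq2 or limma-voom. Leaving out each library in turn gave 0 to 2 higher and 1 to 16 lower members in ASO-L1 against sO-L1, 1 to 3 and 0 to 7 in ASO-L1 against ASO-Ctr, and 0 to 2 and 0 to 0 in sO-L1 against ASO-Ctr. There the spread of a lone remaining library was taken from the rest. Calls were fewest without ASO-L1 1 (5 of 25 kept) and without sO-L1 1 (7 of 25). Thinning leaves fewer counts and leaving out a library fewer samples, and for the other settings the cause was not tested.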
